A study of Homo sapiens with 4 samples.

Results

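The cytidines described here lie in 3' untranslated regions (3'UTRs) and were listed as C mismatches after sodium borohydride treatment of LX-2 RNA. LX-2 is an established cell line of human hepatic stellate cells. They were chosen by the segment column of the deposited tables, read on the opening line of each position, and number 2259 of the 17862 positions listed in all. After TGF-β1 1407 of them were listed, in control 1026, and 174 in both. The study set LX-2 cells (labelled genotype WT) given human recombinant TGF-β1 at 5 ng/ml for 24 h against untreated LX-2 cells, with 2 libraries per group described as biological replicates. Each group has 1 table with 1 mismatch difference (the column named diff, printed here in percent) and 1 p-value per position, so replicate errors are lacking and no difference between the groups was tested. Intervals of shares are 95% Wilson intervals, and those of medians are 95% order-statistic intervals. Both describe the lists of positions and not the spread between cultures.

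The 3'UTR is the part of a messenger RNA between the stop codon and the poly(A) tail, where RNA-binding proteins and microRNAs attach and set how long the message lasts, where it goes and how often it is translated. N4-acetylcytidine (ac4C) is an acetylated cytidine that the enzyme NAT10 writes, known best from ribosomal and transfer RNA and reported in messenger RNA as well. Borohydride reduces ac4C to a base that reverse transcriptase misreads, which leaves a C-to-T mismatch in the sequence. No library carries a label for omission of borohydride or loss of NAT10, so whether a listed mismatch marks ac4C was not tested. TGF-β1 is the growth factor that turns stellate cells into contractile, matrix-producing myofibroblasts.

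No genome was used, but a few of these cytidines fall inside the RefSeq windows (build GRCh38.p14) that reach from 250 bases before to 50 bases after the start of another gene. They are shown because they let the listed base be read. Among positions of every segment, the end coordinate was a C on the transcript strand at 312 of 312 positions inside such windows in the TGF-β1 table and at 210 of 210 in the control table. All coordinates below are therefore the 1-based end coordinate of hg38. The 9 members with 10 bases to either side are printed 5′ to 3′ on the strand of the listed gene, with the listed cytidine in capitals.
PPIH, chr1:42675880-42675900, plus strand: ggctttggagCcaagtagacc
UQCC3, chr11:62672236-62672256, plus strand: gtcctgtgagCtgccgtcggg
SMIM10L1, chr12:11171786-11171806, plus strand: ttaagaccctCgaaaacatct
SMIM10L1, chr12:11171847-11171867, plus strand: tgtgacaaagCgcagaggatg
DHRS13, chr17:28897904-28897924, minus strand: aagatgggtgCtgagaagtga
SLC2A4RG, chr20:63743722-63743742, plus strand: aagctaatccCgtcacagaaa
PACSIN2, chr22:42871335-42871355, minus strand: gagtcggggaCaggccagcgg
WDR55, chr5:140673776-140673796, plus strand: tcccaagccgCagggtggacg
REPIN1, chr7:150373094-150373114, plus strand: gccctgctagCgagagaggtc

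In these 9 stretches the base before the cytidine was G in 6 and the base after it was G in 4. The trinucleotide CCG with the listed cytidine in the middle, the context reported for ac4C in human RNA, was present in 1, the SLC2A4RG site. Over positions of every segment inside the windows, this context held 31 of 312 after TGF-β1 (9.94%) and 25 of 210 in control (11.9%). It held 6.98% of all C on the listed strand of the 35116 windows. The SLC2A4RG cytidine was listed in both tables, at 3.94% after TGF-β1 and 7.76% in control. The remaining 8 stood in 1 table, from 2.28% and 5.15% at the neighbouring SMIM10L1 cytidines to 19.4% in REPIN1 and 20% in WDR55 (both with a p-value of exactly 0), all after TGF-β1, and 12.2% in PPIH in control. These windows start at genes that overlap or neighbour the 3'UTR, and the sources used here do not say whether reads were assigned by strand.

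The 3'UTRs held a similar part of both tables. They made up 11.99% of the TGF-β1 positions (95% interval 11.4 to 12.6) and 12.6% of the control positions (11.9 to 13.4). Counting every gene of a position, 985 genes had 3'UTR positions after TGF-β1 and 858 in control. The number of 3'UTR positions was 1.37 times as high after TGF-β1 as in control, against 1.48 for coding and 1.46 for 5'UTR positions. The direction turned, to a ratio of 0.901, when the TGF-β1 table was shortened to the control table's length by lowest p. Equal lengths set the ratio over all positions to parity. The 3'UTR ratio then only restates the 3'UTR shares, 11.4% after TGF-β1 and 12.6% in control, and is no separate result. Every position had the same segment on all its lines, and 43 positions after TGF-β1 and 24 in control were annotated to several genes. None of the 2259 cytidines lay in any of 1562 RefSeq microRNA hairpins.

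Read depth and transcript level are not in the tables, so more listed positions and more reads of a transcript cannot be told apart. At 3'UTR positions of 5 to 10%, the deposited p-values had a median of 2.41e-05 after TGF-β1 and 0.000616 in control. Each of 6 ranges of mismatch difference had the lower median p-value after TGF-β1. The part of this in the counts was not tested. Of 11 stellate cell markers, 8 had a listed position in any segment after TGF-β1 and 4 in control, with ACTA2, COL3A1, PDGFRB and THY1 listed after TGF-β1 alone. Counting 3'UTR positions alone, 4 of the 11 were listed after TGF-β1 and 1 in control. Over all genes, 4444 had a listed position in any segment after TGF-β1 and 4384 in control, and 985 and 858 had one in a 3'UTR. The share of all genes listed in 1 table alone is not given here, so the marker counts cannot be set against it. None of 7 hepatocyte and 5 endothelial markers had a listed position in either table. CD68 was the sole listed marker of 5 for macrophages, in both tables, and SOX9 the sole one of 4 for cholangiocytes, in control.

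Listed 3'UTR cytidines had higher mismatch differences than listed coding or 5'UTR cytidines in both tables. The median over 3'UTR positions was 5.71% after TGF-β1 and 5.15% in control. Coding positions had medians of 4.53% after TGF-β1 and 3.87% in control, and 5'UTR positions 4.66% after TGF-β1 and 4.12% in control. A level of 10% or more was listed at 347 3'UTR positions after TGF-β1 (24.7%, 22.5 to 27.0) and at 211 in control (20.6%, 18.2 to 23.1). Coding positions reached that level in 17.3% after TGF-β1 (16.5 to 18.1) and in 10.5% in control (9.72 to 11.3). The intervals count single positions, several of which can lie in the same gene, and the difference between segments was not tested. Only positions with a deposited p-value below 0.05 are listed. The median deposited p-value after TGF-β1 was 1.94e-05 for 3'UTR and 1.11e-05 for coding positions. In control it was 0.000825 for 3'UTR and 0.000332 for coding positions. The part of this threshold in the levels of each segment was not tested. The number of 3'UTR positions at 10% or more was 1.64 times as high after TGF-β1 as in control, against 2.44 for coding positions.

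**Figure D1:**
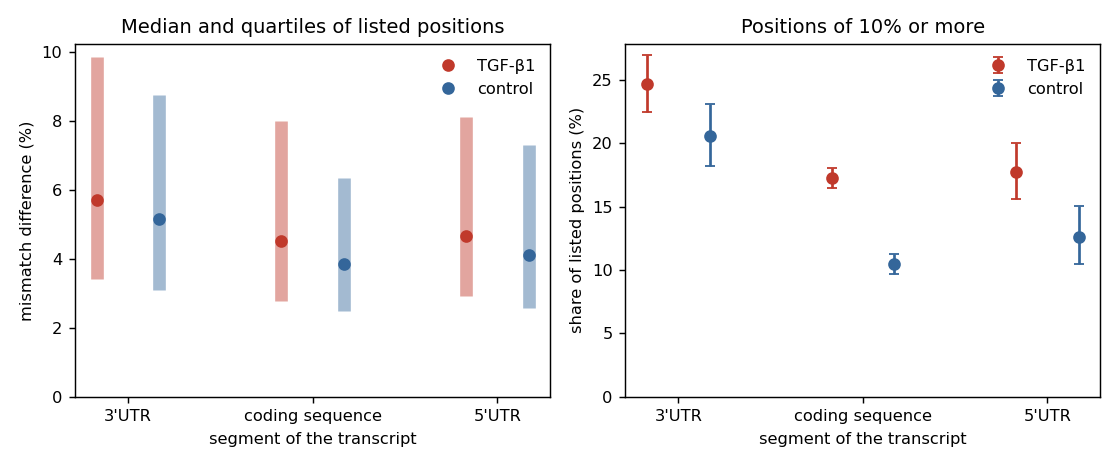
Mismatch difference of listed positions (left; points are medians, bars run between the quartiles) and share of listed positions at 10% or more (right; bars are 95% Wilson intervals) by segment, with TGF-β1 in red and control in blue. The 3'UTR medians of 5.71% and 5.15% (TGF-β1 and control) stand above those of coding sequence and 5'UTR in the same table.

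The difference between segments was also present inside genes. Of 611 genes with both 3'UTR and coding positions after TGF-β1, 369 (60.4%, 56.5 to 64.2) had the higher gene median in the 3'UTR. In control this held for 227 of 383 genes (59.3%, 54.3 to 64.1). The median over genes of the 3'UTR median minus the coding median was 0.89 percentage points after TGF-β1 (0.58 to 1.22) and 0.84 in control (0.37 to 1.47). A p-value of exactly 0 went with many 3'UTR positions, 22.4% after TGF-β1 and 16.5% in control, against 9.15% of coding positions after TGF-β1 and 6.37% in control. Positions of that kind had a median of 7.50% after TGF-β1 and 5.93% in control. Without them, the 3'UTR medians were 5.31% after TGF-β1 and 4.98% in control, and the coding medians 4.36% after TGF-β1 and 3.77% in control.

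Counted in bases, the listed 3'UTR cytidines lay nearer to the gene end after TGF-β1, as did listed coding and 5'UTR cytidines. Measured along the genome on the gene's strand, the median 3'UTR distance to the annotated gene end was 970 bases after TGF-β1 (900 to 1036) and 1481.5 bases in control (1352 to 1628). Coding positions had medians of 7681 bases after TGF-β1 and 11800.5 in control. For 5'UTR positions they were 13949 after TGF-β1 and 19145 in control, and for all listed positions 6696 after TGF-β1 and 9617.5 in control. Within 1000 bases of the end lay 51.2% of the 3'UTR positions after TGF-β1 (48.6 to 53.8) and 36.9% of those in control (34.0 to 39.9). Closer than 100 bases lay 36 positions after TGF-β1 and 15 in control. TIMP1, an inhibitor of matrix metalloproteinases, had its shared position 94 bases from the end, at 2.79% after TGF-β1 and 3.43% in control.

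Genes listed in both tables and genes listed in 1 differed in this respect. In the 320 genes with 3'UTR positions in both tables (33.4% of 957 after TGF-β1 and 38.2% of 837 in control, each position counted for the gene of its opening line), the median over positions was 1061 bases after TGF-β1 (970 to 1193) and 1254 in control (1089 to 1411). The median over these genes of the gene's own median was 1092 bases after TGF-β1 and 1098.25 in control. The gene median was nearer to the end after TGF-β1 in 129 of them, farther in 126 and equal in 65. In genes with 3'UTR positions in 1 table, the median distance was 892 bases over 823 TGF-β1 positions and 1693 bases over 605 control positions. The genes themselves differed in size as well: those listed in the TGF-β1 table alone had a median span of 18844 bases and those listed in the control table alone 42341 bases. As a percentage of gene span, the median distance over all 3'UTR positions was 5.07% after TGF-β1 and 4.41% in control. It was 5.11% after TGF-β1 and 5.04% in control in genes of both tables. In genes of 1 table it was 5.05% after TGF-β1 and 4.15% in control. Relative to gene span, the listed 3'UTR cytidines were thus not nearer to the end after TGF-β1. The part of gene span in the distances was not tested.

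**Figure D2:**
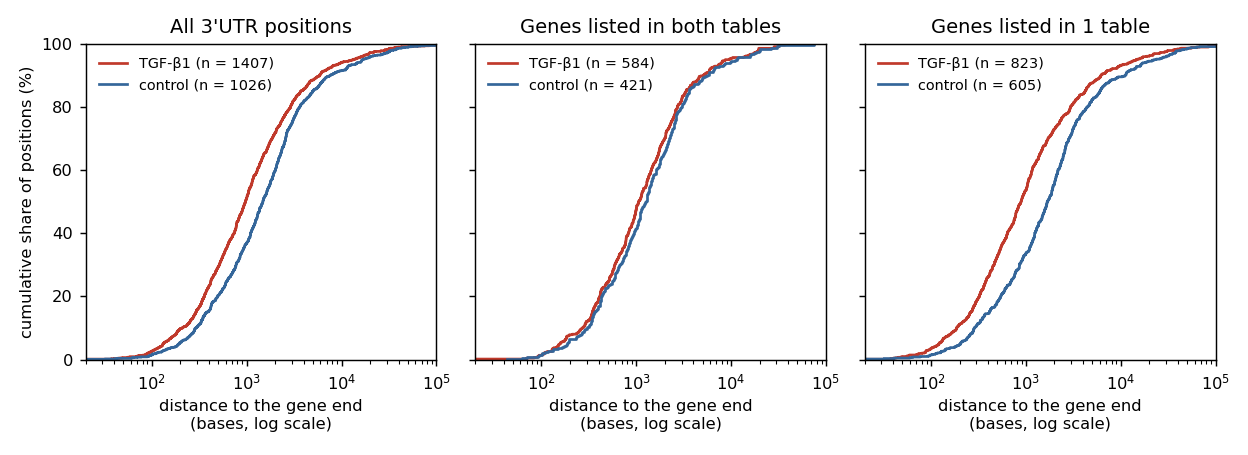
Cumulative share of 3'UTR positions by distance to the annotated gene end in bases (log axis), with TGF-β1 in red and control in blue, for all positions, for genes with 3'UTR positions in both tables and for genes with them in 1 table. The curves lie close together in the 320 genes of the middle panel and apart in the right panel, with medians of 892 bases for TGF-β1 and 1693 bases for control.

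A part of the positions lay far from the gene end. More than 5000 bases from the gene end lay 161 positions after TGF-β1 (11.4%) and 153 in control (14.9%). Measured to the nearest annotated transcript end, the medians were 450 bases after TGF-β1 and 724 in control. The PACSIN2 cytidine printed above lay 35933 bases from the gene end, and PACSIN2 encodes a membrane-bending endocytic protein. After TGF-β1 the median level was 7.08% at the 36 positions of the nearest 100 bases, 5.66% at 100 to 500, 5.38% at 500 to 1000, 5.63% at 1000 to 2000, 6.40% at 2000 to 5000 and 5.90% beyond. In control it was 3.62% at the 15 positions of the nearest 100 bases, 4.68% at 100 to 500, 4.83% at 500 to 1000, 5.40% at 1000 to 2000, 5.69% at 2000 to 5000 and 5.41% beyond. In the same order of distance, a level of 10% or more was reached after TGF-β1 by 27.8% (15.8 to 44.0), 20.5%, 21.4%, 23.7%, 31.5% and 31.7% of positions. In control the shares were 6.67% (1.19 to 29.8), 22.2%, 17.1%, 21.2%, 21.3% and 21.6%.

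A smaller share of 3'UTR cytidines than of coding cytidines was listed in both tables. Of the TGF-β1 positions 174 of 1407 were listed in control (12.4%, 10.7 to 14.2), against 16.9% of all TGF-β1 positions and 17.6% of coding ones (16.8 to 18.4). Of the control positions 174 of 1026 were listed after TGF-β1 (17.0%, 14.8 to 19.4), against 24.5% of all control positions and 26.0% of coding ones (24.9 to 27.1). Among positions with a p-value above 0, the shares were 14.3% after TGF-β1 and 19.1% in control for 3'UTRs, and 19.0% after TGF-β1 and 27.4% in control for coding sequence. Recurrence did not vary in 1 direction with the control level, with 15.8% of control positions at 1 to 3%, 20.2% at 3 to 5%, 16.3% at 5 to 10% and 15.6% at 10% or more found again. Among TGF-β1 positions it was 6.67% at 1 to 3% and 18.4% at 10% or more.

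At the 174 shared 3'UTR cytidines, in 162 genes, the level was higher after TGF-β1 at 128 (73.6%, 66.6 to 79.6) and lower at 46. Over shared positions of all segments 78.4% were higher, and over shared coding positions 79.1% (77.0 to 81.0), so the 3'UTR share lies near the background. The median level was 7.71% after TGF-β1 and 4.97% in control. Position by position, the TGF-β1 level minus the control level had a median of 1.99 percentage points (1.51 to 2.66), with quartiles at -0.08 and 5.19, and the median log2 ratio was 0.56. A level at least 2-fold higher after TGF-β1 was listed at 51 (29.3%, 23.1 to 36.5), against 27.7% over all segments. A level at least 2-fold lower was listed at 2 (1.15%), against 1.66%. Where the control level was 10% or more, 17 of 33 positions were higher after TGF-β1, by a median over the 33 of 0.44 points, while 34 of 39 with control levels of 1 to 3% were higher. The control level sets these ranges and is also subtracted, and both levels had to reach 1% to be listed. The ranges of control level therefore cannot show whether the difference depends on level. The share that was higher ranged from 70.3% to 75% over 4 ranges of distance to the gene end.

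**Figure D3:**
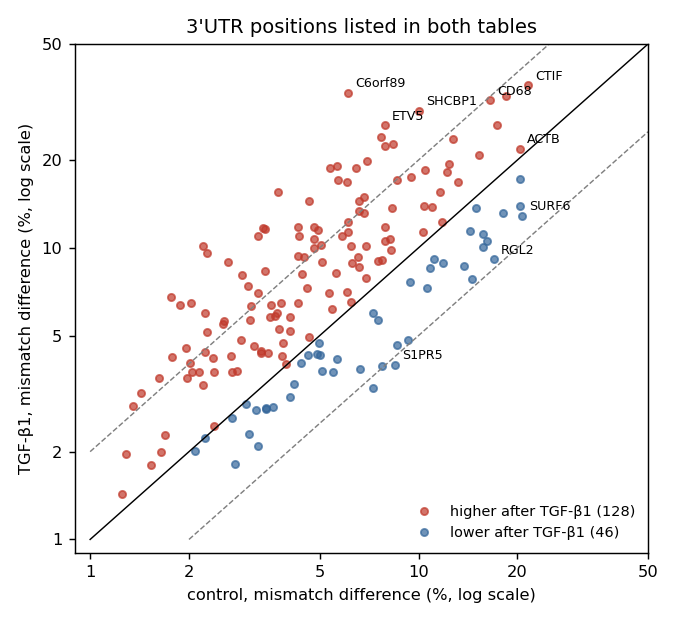
Mismatch difference after TGF-β1 (vertical) against control (horizontal), in percent on log axes, at the 174 shared 3'UTR positions. The solid line marks equal levels and the dashed lines a 2-fold difference; 128 points lie above the solid line and 46 below it.

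The positions with the largest upward differences were picked by that difference and are given as a description. C6orf89, which encodes the bombesin receptor-activated protein, had 34.1% after TGF-β1 and 6.09% in control at chromosome 6 position 36926455 (plus strand), 2509 bases from the gene end. The authors' p-values there were 1.25e-27 after TGF-β1 and 4.70e-08 in control. SHCBP1, a midbody protein of dividing cells that binds the adaptor SHC, had 29.5% after TGF-β1 and 10.1% in control at chromosome 16 position 46581154. ETV5, an ETS transcription factor downstream of receptor tyrosine kinases, had 26.3% after TGF-β1 and 7.88% in control at chromosome 3 position 186047725. All 3 were at least 2-fold higher.

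The other 7 positions follow in the order of their difference. SLC39A1, a zinc importer, had 23.9% after TGF-β1 and 7.66% in control, at a position also annotated to ENSG00000285779. CD68, a lysosomal glycoprotein best known from macrophages, had 32.0% after TGF-β1 and 16.5% in control, 410 bases from the gene end. RFLNB, a filamin regulator, had 33.2% after TGF-β1 and 18.4% in control. CTIF, a factor of cap-binding-complex-dependent translation, had the highest mean of all shared positions, with 36.1% after TGF-β1 and 21.6% in control at chromosome 18 position 48860209. RTL6, a gene derived from a retrotransposon, had 22.8% after TGF-β1 and 8.38% in control. MBD3, a subunit of the NuRD chromatin remodeller, had 22.3% after TGF-β1 and 7.93% in control. PAFAH1B1, the dynein regulator LIS1, had 18.8% after TGF-β1 and 5.38% in control. SHCBP1 and PAFAH1B1 had a deposited p-value of exactly 0 after TGF-β1, and CTIF had it in control.

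Downward differences were smaller, the largest being -7.82 points, and of the 10 named here 1 was at least 2-fold. RGL2, an exchange factor for the small GTPase Ral, had 9.16% after TGF-β1 and 16.97% in control, 116 bases from the gene end. SURF6, a nucleolar protein of ribosome assembly, had 12.9% after TGF-β1 and 20.7% in control. GFER, a sulfhydryl oxidase of the mitochondrial intermembrane space, had 7.79% after TGF-β1 and 14.6% in control, with a p-value of exactly 0 in both tables. IGF2, the fetal insulin-like growth factor, had 13.96% after TGF-β1 and 20.4% in control at chromosome 11 position 2132010, a position also annotated to ENSG00000284779. S1PR5, a sphingosine-1-phosphate receptor, was the 2-fold case, with 3.97% after TGF-β1 and 8.48% in control.

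The other 5 had differences from -5.68 to -4.51 points. NDRG1, a stress-induced protein, had 10.5% after TGF-β1 and 16.2% in control. ORAI2, a store-operated calcium channel, had 10.1% after TGF-β1 and 15.7% in control. TNIP1, which binds A20 and restrains NF-κB, had 8.65% after TGF-β1 and 13.8% in control. UBE2G2, a ubiquitin-conjugating enzyme of protein degradation at the endoplasmic reticulum, had 13.2% after TGF-β1 and 18.1% in control. POLDIP3, an mRNA export and translation factor, had 11.2% after TGF-β1 and 15.7% in control, at a position also annotated to ENSG00000289517.

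Some 3'UTR cytidines were high in both tables. ACTB, the cytoplasmic beta-actin, had 21.9% after TGF-β1 and 20.4% in control at chromosome 7 position 5527397 (minus strand), 241 bases from the nearest transcript end. The authors' p-values there were 7.58e-80 after TGF-β1 and 3.79e-19 in control. NBL1, a secreted BMP antagonist, had 26.3% after TGF-β1 and 17.4% in control at chromosome 1 position 19657742. PSMB9, an immunoproteasome subunit, had 12.3% after TGF-β1 and 11.8% in control. In all, 26 shared positions were at 10% or more in both tables, 38 after TGF-β1 alone and 7 in control alone.

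The highest levels stood in 1 table. Listed after TGF-β1 and not in control were BHLHE40, a helix-loop-helix repressor of the clock, at 57.0%, the kinase gene MAP3K9 at 50%, a position shared by PAGR1 and ENSG00000280893 at 46.4% and the inner nuclear membrane gene TMEM201 at 43.2%. MAP3K9, PAGR1 and TMEM201 had a p-value of exactly 0. Listed in control and not after TGF-β1 were RERE, a nuclear receptor corepressor, at 83.3%, MANBAL at 39.1%, the cohesin regulator CDCA5 (sororin) at 35.98%, the ER calcium-binding protein CALU at 34.3% and the clock factor BMAL2 at 33.2%, with a p-value of exactly 0 in CALU. A cytidine missing from a table can lack the mismatch, miss the authors' threshold or lack reads.

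Several genes carried rows of 3'UTR cytidines. Genes with 3 or more numbered 95 after TGF-β1 (9.64%) and 34 in control (3.96%). The TGF-β1 list was longer, with 1407 positions in 985 genes against 1026 in 858 genes in control. The part of list length in these counts was not tested. MYL9, the regulatory light chain of smooth muscle and nonmuscle myosin, had most 3'UTR cytidines, with 9 after TGF-β1 and 1 in control. Its shared cytidine at chromosome 20 position 36549390 had 4.60% after TGF-β1 and 3.16% in control, and the other 8 lay between 1.17% and 5.34%. They ran from 2057 to 398 bases before the gene end.

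EXOC7, a subunit of the exocyst, had 8 after TGF-β1 and 4 in control, and both shared ones were lower after TGF-β1, with 2.61% after TGF-β1 and 2.71% in control at one and 1.82% after TGF-β1 and 2.76% in control at the other. ORAI2 had 7 after TGF-β1, from 4.32% to 22.1%, and 1 in control. SEPTIN9, a septin of the cytoskeleton, had 7 after TGF-β1 and 2 in control, none above 5.51%.

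Other genes had most of their cytidines in control. FOSL2, an AP-1 transcription factor, had 0 after TGF-β1 and 5 in control, between 1.10% and 4.48%. TGOLN2, a protein of the trans-Golgi network, had 0 after TGF-β1 and 4 in control, up to 17.0%. CALU had 1 after TGF-β1 at 16.7%, and 4 in control at other cytidines. MPRIP, which targets myosin phosphatase to actin, had 2 after TGF-β1 and 4 in control, at least 26319 bases before the gene end. IGF2 had 2 after TGF-β1 and 4 in control.

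**Figure D4:**
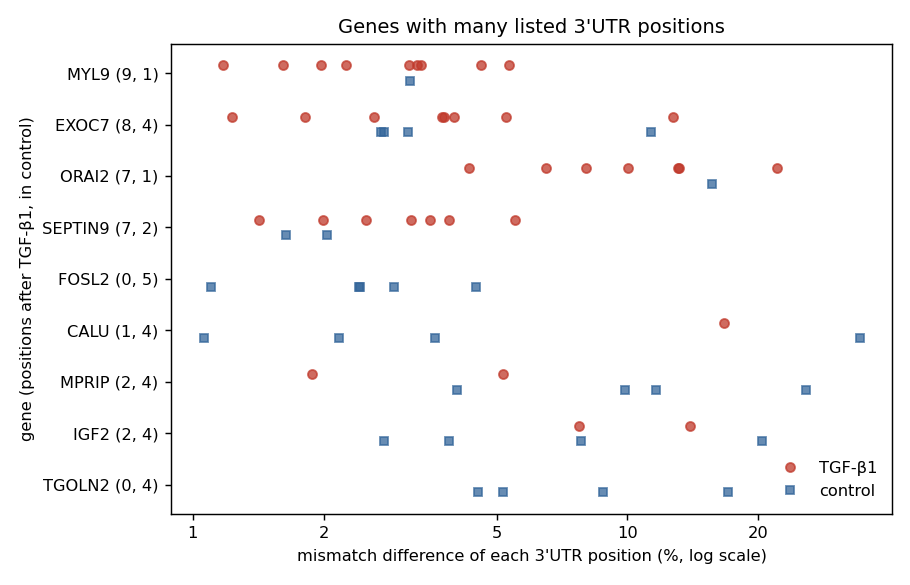
Mismatch difference of each listed 3'UTR position, in percent on a log axis, in 9 genes with many of them; red circles are TGF-β1, blue squares are control, and the numbers beside a gene give its positions after TGF-β1 and in control. MYL9 has 9 red circles up to 5.34% and 1 blue square, and FOSL2 has 5 blue squares alone.

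Close neighbours made up a smaller share of 3'UTR positions than of coding positions in both tables. Within 10 bases of another listed 3'UTR cytidine lay 162 positions after TGF-β1 (11.5%, 9.95 to 13.3) and 60 in control (5.85%, 4.57 to 7.46), against 14.3% of coding positions after TGF-β1 and 11.1% in control, measured the same way. A longer list also holds more close neighbours. Pairs of directly adjacent cytidines numbered 32 after TGF-β1 and 12 in control. CCND1, the cyclin of early G1, had such a pair after TGF-β1 at 11.1% and 3.93%, at chromosome 11 positions 69651288 and 69651289. The actin crosslinker FLNC had a pair at 6.12% and 6.01%. FTL, the ferritin light chain, had a pair 130 and 129 bases from the gene end, of which the nearer was listed in both tables, at 2.10% after TGF-β1 and 3.24% in control. The median level in these groups was 5.01% after TGF-β1 and 3.70% in control, against 5.81% after TGF-β1 and 5.24% in control elsewhere in 3'UTRs.

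Gene groups were compared by their listed 3'UTR positions, counted for each gene. Of all 1512 genes with any, more were listed after TGF-β1 in 772 (51.1%), fewer in 574 and as many in 166, with 1451 positions after TGF-β1 and 1051 in control (ratio 1.38). Over the genes of all 18 lists together, each counted once, the positions numbered 154 after TGF-β1 and 81 in control (ratio 1.90). Of these 121 genes with 3'UTR positions, 71 had more after TGF-β1 (58.7%), 37 fewer and 13 as many. The listed genes as a whole thus had a higher ratio than all genes. The counts per list are small and were not tested.

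Contractile and cytoskeletal genes had 30 positions after TGF-β1 and 12 in control. Of 19 listed members, 11 had more after TGF-β1, 5 fewer and 3 equal numbers. Besides MYL9 and ACTB, FLNC had 4 after TGF-β1 and 1 in control, and CFL1, the actin-severing cofilin, 2 after TGF-β1 and 1 in control. TAGLN, an actin-binding marker of contractile cells, had 2 after TGF-β1, at 1.58% and 2.20%, and 0 in control. CALD1, TLN1, TPM1, TPM3 and TPM4 had 0 after TGF-β1 and 1 each in control.

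Structural matrix genes and genes of matrix processing are given side by side. The matrix proteins had 5 positions after TGF-β1 and 9 in control, with 3 of 9 genes having more and 6 fewer. COL12A1 and FBN2, a fibril-associated collagen and a fibrillin, each had 0 after TGF-β1 and 2 in control. SPARC, a collagen-binding glycoprotein, had 2 after TGF-β1 and 0 in control, and THBS1, an activator of latent TGF-β, had 1 after TGF-β1 and 2 in control, the shared one at 4.38% after TGF-β1 and 2.24% in control. Crosslinking and proteolysis genes had 22 after TGF-β1 and 8 in control, with 7 of 11 having more, 1 fewer and 3 equal numbers. With the shortened TGF-β1 table, the ratio of the matrix proteins was 0.333 in place of 0.556, and that of crosslinking and proteolysis 1.62 in place of 2.75. The ratio over all 3'UTR positions was then 0.901 in place of 1.37.

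PLAU, the urokinase plasminogen activator, had 3 after TGF-β1, up to 29.8%, and 0 in control. The collagenase MMP14 had 2 in each table, with the shared one at 7.05% after TGF-β1 and 6.07% in control. CTSB, a cathepsin, had 3 after TGF-β1 and 1 in control, with the shared one at 3.57% after TGF-β1 and 1.98% in control.

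TGF-β and SMAD genes had 12 positions after TGF-β1 and 7 in control, with 4 of 8 having more, 3 fewer and 1 equal. PMEPA1, a feedback inhibitor of SMAD signalling, had 4 after TGF-β1, from 3.16% to 5.89%, and 0 in control. CCN1, a matricellular protein, had 2 after TGF-β1 and 1 in control, the shared one at 7.38% after TGF-β1 and 3.03% in control. At the shared cytidines of TGFBI and ENG (endoglin, a TGF-β co-receptor) the level was lower after TGF-β1, with 4.34% after TGF-β1 and 4.92% in control in TGFBI and 2.30% after TGF-β1 and 3.05% in control in ENG. TGFB1 itself had 2 after TGF-β1, up to 10.5%, and 0 in control. SMAD3, a signal-carrying SMAD, had its 1 shared cytidine at 6.49% after TGF-β1 and 3.82% in control, and the inhibitor SMAD7 had 0 after TGF-β1 and 1 in control.

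Messages known for AU-rich elements, which mark a 3'UTR for rapid decay, had 22 positions after TGF-β1 and 9 in control, with 10 of 13 genes having more and 3 fewer. Their ratio was 2.44, and 3.80 without positions of p exactly 0. CCND1 had 6 after TGF-β1, from 2.14% to 11.1%, and 0 in control. IER3, an immediate early gene, had 6 after TGF-β1 and 1 in control, all within 521 to 619 bases of the gene end, and its shared cytidine had 2.85% after TGF-β1 and 3.59% in control. VEGFA had 2 after TGF-β1, one at 23.7%, and 1 in control at 30.1%, at another cytidine, 1629 bases from the gene end against 1706. LIF, a cytokine of the interleukin-6 family, had 1 after TGF-β1 at 35.7% and 0 in control. FOSL2, JUNB and ZFP36L2 had positions in control alone.

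Proteins that bind 3'UTRs or degrade messages had 7 positions after TGF-β1 and 9 in control, with 3 of 10 genes having more, 5 fewer and 2 equal. At p under 0.001 the direction turned, with a ratio of 1.20. KHSRP, which promotes decay of AU-rich messages, had 3 in each, the shared one at 2.28% after TGF-β1 and 1.69% in control. FXR2, a relative of the fragile X protein, had 1 after TGF-β1 at 28.1% and 0 in control, IGF2BP2 had 1 in each table at different cytidines, and AGO2, the slicing Argonaute, had 0 after TGF-β1 and 1 in control. Among 20 factors of 3′ end processing, 12 of them listed in some segment, PABPN1, a nuclear poly(A)-binding protein, had 1 after TGF-β1. The list of ac4C and RNA modification enzymes had 0 positions after TGF-β1 and 3 in control, 2 of them in the adenosine deaminase ADAR, at 5.71% and 13.97%, and 1 in ADARB1. NAT10 had none.

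Selenoprotein genes, whose 3'UTR holds the selenocysteine insertion element, had 5 positions after TGF-β1 and 4 in control, with 3 of 6 having more and 2 fewer. MSRB1, a methionine sulfoxide reductase, had its 1 shared cytidine at 11.5% after TGF-β1 and 4.95% in control. SELENON, a reticulum membrane selenoprotein, had a shared cytidine at 14.5% after TGF-β1 and 6.59% in control, with a p-value of exactly 0 after TGF-β1. GPX1 and SELENOM each had 1 after TGF-β1 and 0 in control. The iron-responsive-element messages had 2 in each table. Where that element lies in these messages was not examined here, so these positions are not linked to it. FTL had 2 after TGF-β1 and 1 in control, and EPAS1, a hypoxia-inducible transcription factor, had 0 after TGF-β1 and 1 in control.

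Over all 18 lists, 417 of 573 genes were listed in some segment and 121 had a 3'UTR position. Of 81 cytosolic ribosomal protein genes 62 were listed in some segment and 7 had a 3'UTR position. These positions numbered 6 after TGF-β1 and 3 in control, with 5 genes having more and 2 fewer. RPL41 had 2 after TGF-β1, at 1.46% and 12.8%, and RPL37 had 2 in control, at 5.13% and 12.3%. RPS4X had 1 after TGF-β1 at 10.8% and RPS23 1 in control at 12.96%. Of 36 translation factor genes 33 were listed in some segment and 5 had 3'UTR positions. These were 6 in number and all after TGF-β1, 2 of them in EIF2B5 and 1 each in EEF2, EIF1, EIF3I and EIF4A3.

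Metabolic and secretory genes completed the lists. Glycolytic genes had 8 positions after TGF-β1 and 1 in control, with 4 of 5 having more and 1 equal, and SLC16A3, the lactate exporter, had 2 after TGF-β1, at 2.55% and 29.9%. ENO1, an enolase, had 1 at 17.6% after TGF-β1 and 1 at 2.45% in control, at different cytidines. Of 35 nuclear genes of oxidative phosphorylation, 22 were listed in some segment. Among them NDUFS1 alone had a 3'UTR position, 0 after TGF-β1 and 1 in control, at 20.7%. Lysosomal genes had 8 after TGF-β1 and 1 in control, with all 6 having more, among them PSAP at 15.8% and CTSA at 15.7%. ER folding and secretion genes had 10 after TGF-β1 and 7 in control, with 4 of 8 having more and 4 fewer, such as SSR2, a translocon-associated protein, with 3 after TGF-β1 and 0 in control. KDELR2, a receptor that returns proteins to the ER, had 2 after TGF-β1, at 3.20% and 34.96%, and 1 in control at 5.12%. For the ER list the direction turned with the shortened TGF-β1 table, to a ratio of 0.857, against 0.901 over all 3'UTR positions. GPI and TPI1, both glycolytic isomerases, each had 2 after TGF-β1 and 0 in control. CTSB is counted with the lysosomal genes too.

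Antigen presentation genes had 8 positions after TGF-β1 and 3 in control, with 3 of 5 having more, 1 fewer and 1 equal. B2M, the constant chain of MHC class I molecules, had 3 after TGF-β1, from 1.93% to 2.51%, and 0 in control. Reads of HLA genes can fall on near-identical relatives, so HLA-E with 3 after TGF-β1 and 1 in control and HLA-B with 0 after TGF-β1 and 1 in control are uncertain. Cell cycle genes had 12 after TGF-β1 and 4 in control, with 4 of 7 having more, 2 fewer and 1 equal, and 6 of the 12 were those of CCND1. CCND3 had 2 after TGF-β1 and 0 in control. E2F1 had 2 after TGF-β1 and 1 in control, the shared one at 2.45% after TGF-β1 and 2.39% in control.

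**Figure D5:**
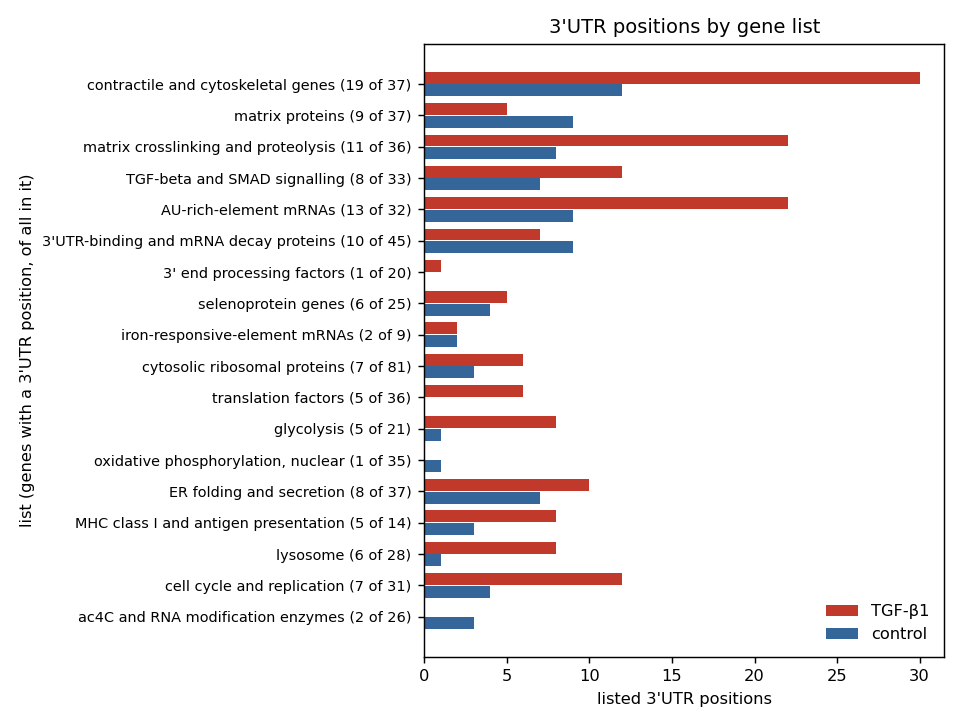
Number of listed 3'UTR positions in each of 18 gene lists, TGF-β1 in red above control in blue; the numbers beside a list give its genes with a 3'UTR position and its genes in all. Contractile genes have 30 positions for TGF-β1 and 12 for control, and matrix proteins have 5 for TGF-β1 and 9 for control.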

How the data were processed

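Polyadenylated RNA of 4 LX-2 libraries was sequenced after borohydride treatment. The submitters' processing notes name STAR 2.7.6a, fastp 0.23.1, featureCounts and the build hg38. For the caller, its filters and the merging of replicates, nothing is stated in the sources used here. The deposited diff column holds a fraction of at least 0.01 per position and group, per the file headers and values, and what is subtracted is not stated. The deposited p-value column lies below 0.05, with no word on any adjustment.

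Lines were merged by position with Python 3.11.15 and pandas 2.3.3. Distance runs from the end coordinate to the deposited gene end on the gene's strand; transcript and RefSeq gene ends were alternatives. A position counted as shared at identical chromosome, base and strand. No test between groups was possible with 1 value per group. Wilson and order-statistic intervals (SciPy 1.17.1) were tested on simulated data. Depth is unknown. The members, the 18 gene lists (573 genes, 571 with a RefSeq symbol) and the tests were chosen with earlier results of these data known. Named were the shared positions with the most extreme difference (up to 10 upward and 10 downward), the 5 highest of each table alone, the 5 highest shared, the 5 genes with most positions per table and up to 4 genes per list; other list members and positions given as examples were chosen after their values were seen. Some of the items this rule names are not reported here.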

Additional observations from a re-analysis of the deposited data

How the results depend on the processing

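No paired analysis was possible because the tables hold 1 value per group and no values per library, so leaving out a replicate could not be run either. Over 112 recomputed values of the results, 80 stayed within the interval of the value as reported (counts within 1.5 times), 31 moved beyond it and 1 reversed. Counting a position where any or all of its lines are 3'UTR could not change a value, because no position had several segments. Nor could the cut at 2% change the ratio of positions at 10% or more. These recomputed values are among the 80 that stayed. When the TGF-β1 table was reduced to as many positions as control has, keeping the lowest p, the ratio of 3'UTR positions turned to 0.901, the 3'UTR share was 11.4%, the recurrence of control positions 12.7% and the median level 6.47%. With equally long tables, that ratio only restates the 3'UTR shares. With p under 0.001 the shares were 11.4% in each table, the recurrence of TGF-β1 positions 9.64%, and the medians 6.47% after TGF-β1 and 5.70% in control. At 2% or more the control share was 13.4% and the medians 6.04% after TGF-β1 and 5.62% in control. At 5% or more the shares were 14.4% after TGF-β1 and 16.8% in control, recurrence 9.63% of TGF-β1 and 14.3% of control positions, the median difference 3.38 points and the control distance 1629 bases. Without p of exactly 0 the shares were 10.5% after TGF-β1 and 11.5% in control, and the TGF-β1 median was 5.31%. With 1 position per gene the shares were 13.9% after TGF-β1 and 14.1% in control, and the control distance was 1337 bases. Sharing within 5 bases gave recurrence of 16.1% of TGF-β1 and 20.4% of control positions. The distance was 450 bases after TGF-β1 and 724 in control to transcript ends. It was 881 after TGF-β1 and 1309.5 in control to RefSeq gene ends, and 1061 after TGF-β1 and 1254 in control in genes of both tables; these last alternatives were added after seeing the data. Of the lists, the ratio of 3'UTR-binding proteins turned to 1.20 at p under 0.001 and that of ER genes to 0.857 with the shortened table, and those of 3 other lists moved by over 1.5 times, as given with them above. The cause of these moves was not tested.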

Other observations

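Chromosomes contributed unequally to the 3'UTR cytidines. Chromosome 17 held 195 after TGF-β1 (13.9%) and 105 in control (10.2%), where all segments together gave 9.52% after TGF-β1 and 8.28% in control. Chromosome 19 held 152 after TGF-β1 (10.8%) and 70 in control (6.82%), near its share of all positions of 11.7% after TGF-β1 and 7.50% in control. Chromosome 9 had 64 after TGF-β1 and 32 in control, where all segments gave 550 after TGF-β1 and 361 in control. Chromosome 22 had 50 after TGF-β1 and 27 in control, where all segments gave 357 after TGF-β1 and 204 in control. On chromosomes 2, 3, 10, 15, 18 and 21 the number of 3'UTR cytidines was lower after TGF-β1. Chromosome 3 had 51 after TGF-β1 and 58 in control, where all segments gave 532 after TGF-β1 and 426 in control. Chromosome 15 had 34 after TGF-β1 and 42 in control, where all segments gave 295 after TGF-β1 and 291 in control. Chromosome 18 had 5 after TGF-β1 and 9 in control, and all segments there were lower too, with 78 after TGF-β1 and 84 in control. These counts were not tested, and their relation to gene span or gene density was not examined here.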
